A study of Homo sapiens with 2 samples.

Results

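The final stages of mitochondrial respiration are carried out by cytochrome bc1 (complex III), cytochrome c oxidase (complex IV) and ATP synthase (complex V), and 37 nuclear genes of these complexes are described here. They were taken by name from a list of subunits and matched to Ensembl identifiers through current or older symbols, and all 37 were found among the 19362 genes of the deposited table. Of these, 9 belong to complex III, 11 to complex IV and 17 to complex V. Each of the 37 had a mean of at least 1 CPM (read counts scaled to a common library size) over both libraries, the minimum used for every gene compared.

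Complex III takes electrons from ubiquinol and passes them through its Rieske iron-sulfur protein and cytochrome c1 to the mobile carrier cytochrome c. Complex IV takes them from cytochrome c and reduces oxygen to water, and the proton gradient that both help to build drives the rotary ATP synthase. All 3 are mosaics of subunits from the nuclear and the mitochondrial genome, so nuclear and mitochondrial gene expression both feed their assembly.

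RNA sequencing was done on FTC-133, an established human cell line from a follicular thyroid carcinoma. There were 2 groups of 1 library each, cells given a control siRNA and cells given an siRNA against CHI3L1, which encodes a secreted chitinase-like glycoprotein. Both libraries were made from total RNA with a TruSeq kit. How many cultures a library holds, the time after transfection and the siRNA sequences were not stated in the labels. With 1 library per group there is no replicate check and no p-value, and every difference below is between these 2 libraries. Ratios are given with 95% exact (Clopper-Pearson) intervals, which cover counting error only, since reads without molecular identifiers are not independent molecules. Fewer cells expressing a gene and less RNA per cell cannot be told apart in bulk RNA.

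The libraries held 15837449 (control siRNA) and 19467345 (CHI3L1 siRNA) reads. CHI3L1 itself had 140 CPM with control siRNA and 48.6 CPM with CHI3L1 siRNA, a ratio of 0.347 (0.321 to 0.374). The thyroid transcription factors PAX8 (82.8 and 71.2 CPM) and NKX2-1 (88.6 and 112 CPM) were present, whereas FOXE1, another, had 1 and 19 reads. TSHR had 8.73 and 9.23 CPM, and TG, the gene of thyroglobulin, had 10 and 14 reads. Of 7 thyroid markers 5 were in the table, with a summed level of 181 and 195 CPM. Of 6 immune markers 1 was in the table (PTPRC, 12 and 8 reads), and of 4 endothelial markers 3 were (summed level 11.3 and 9.75 CPM). All 6 fibroblast markers were in the table with a summed level of 2516 and 6438 CPM, most of it from COL1A1 (642 and 1429 CPM) and COL1A2 (1814 and 4959 CPM). LUM (51.8 and 40.2 CPM) and PDGFRB (7.15 and 7.90 CPM) were also detected, and DCN and PDGFRA were at most at 1.49 CPM. The part of these markers in the results below was not tested.

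Transcripts for nuclear subunits of complexes III to V were lower in the CHI3L1 siRNA library, and those for the subunits of the same complexes made inside mitochondria were higher. Of the 37 genes, 35 had a log2 fold below 0, and 24 were at least 1.5-fold lower, 13 at least 2-fold lower and 9 at least 3-fold lower, while 0 were 1.5-fold higher. Among all 14815 genes past the 1 CPM minimum, 48.8% had a log2 fold below 0, and 13.4%, 4.41% and 0.911% passed the same limits downwards, and 7.73% were at least 1.5-fold higher. The log2 fold compares the CHI3L1 siRNA value with the control value, each raised by 1 CPM, which understates differences of low genes. The median log2 fold was −0.81 over the 37 genes and 0.01 over all genes. Together the 37 genes took 1.17% of reads with control siRNA and 0.536% with CHI3L1 siRNA, a ratio of summed CPM of 0.455 (0.452 to 0.458).

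By complex, the median log2 fold was −0.75 for complex III (5 of 9 genes at least 1.5-fold lower), −0.94 for complex IV (8 of 11) and −0.74 for complex V (11 of 17). The summed CPM went from 3231 to 1354 for complex III, from 3819 to 1471 for complex IV and from 4716 to 2528 for complex V. These are ratios of 0.419 (0.413 to 0.425), 0.385 (0.380 to 0.391) and 0.536 (0.530 to 0.542). Whether the complexes differ from each other cannot be tested with 1 library per group.

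**Figure D1:**
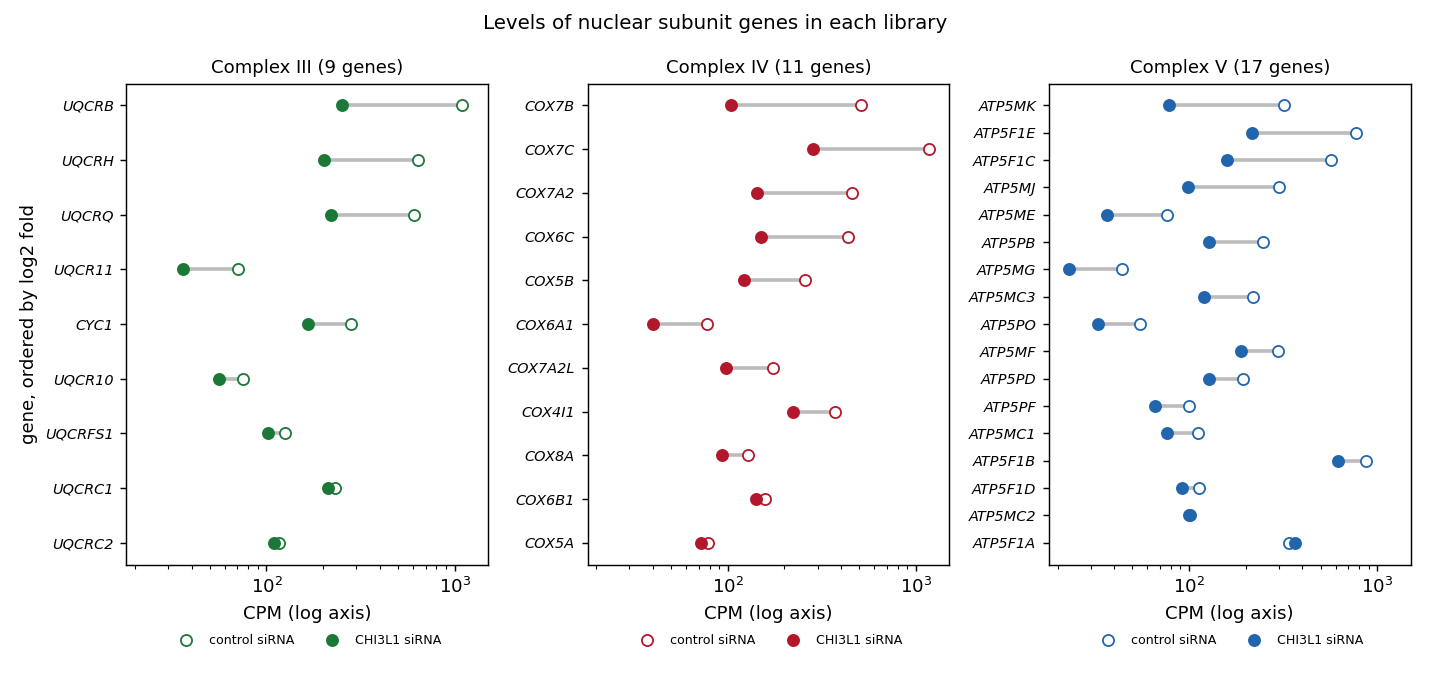
Levels of the 37 nuclear subunit genes in CPM (log axis) with control siRNA (open circles) and CHI3L1 siRNA (filled circles), 1 library each, in 1 panel per complex; grey lines join the values of a gene. The distance between circles ranges from over 4-fold for COX7B, UQCRB, COX7C and ATP5MK to almost none for ATP5MC2 and UQCRC2.

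In complex III, the small accessory subunits held the lowest folds, and the large core proteins were nearly level. UQCRB (ENSG00000156467, GRCh38 chromosome 8, 96225920 to 96235634), the ubiquinone-binding small subunit, had 1092 CPM with control siRNA and 252 CPM with CHI3L1 siRNA, a ratio of 0.231 (0.224 to 0.238). UQCRH (chromosome 1, 46303631 to 46316776), the hinge protein next to cytochrome c1, had 635 and 202 CPM, a ratio of 0.319 (0.307 to 0.331). UQCRQ, another small subunit, had 605 and 219 CPM, a ratio of 0.362 (0.349 to 0.375). These 3 genes were all at least 2-fold lower, and their counting intervals lay far from 1.

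The other 2 small subunits were closer to level, with 70.9 and 35.8 CPM for UQCR11 (log2 fold −0.97) and 75.4 and 56.2 CPM for UQCR10 (−0.42). The redox subunits differed from each other as well. CYC1, cytochrome c1, had 280 and 166 CPM, a ratio of 0.591 (0.565 to 0.619), and UQCRFS1, the Rieske protein, had 125 and 102 CPM, a ratio of 0.814 (0.764 to 0.866). The core proteins UQCRC1 (230 and 211 CPM) and UQCRC2 (117 and 110 CPM), which form the matrix-facing base of the complex, had log2 folds of −0.12 and −0.09, and the interval of UQCRC2 reached 1 (ratio 0.940, 0.883 to 1.00). The median was −1.46 for the 5 small subunits and −0.11 for both core proteins. Position here goes with coding length, from 168 to 333 nt in the small subunits and 1440 and 1359 nt in UQCRC1 and UQCRC2. After the transcript length and GC trend described further on, UQCRB, UQCRH, UQCRQ, UQCR11 and UQCR10 had log2 folds of −1.72, −0.86, −0.78, −0.45 and 0.27. UQCRC1 and UQCRC2 were both at −0.06 after that trend.

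In complex IV, whose catalytic core is encoded by mitochondrial DNA, 10 of the 11 nuclear genes encode surrounding subunits and the other, COX7A2L, encodes a factor that links complexes III and IV into supercomplexes. The subunit genes ran from more than 4-fold lower to nearly level. COX7B (ENSG00000131174, chromosome X, 77899438 to 77907373), a small transmembrane subunit, had the lowest fold of all 37 genes, with 508 CPM for control siRNA and 104 CPM for CHI3L1 siRNA, a ratio of 0.205 (0.195 to 0.215). COX7C (ENSG00000127184, chromosome 5, 86617904 to 86620962), another transmembrane subunit, had 1176 and 285 CPM, a ratio of 0.242 (0.235 to 0.250). COX7A2 (chromosome 6, 75237675 to 75250323), the widely expressed isoform of subunit VIIa, had 457 and 143 CPM, a ratio of 0.312 (0.299 to 0.326). COX6C had 436 and 149 CPM, a ratio of 0.343 (0.328 to 0.358), and COX5B, a zinc-binding subunit on the matrix side, had 258 and 122 CPM, a ratio of 0.474 (0.450 to 0.498).

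Those 5 were the complex IV genes past 2-fold. COX6A1 (78.0 and 40.1 CPM, log2 fold −0.94), COX7A2L (173 and 98.2 CPM, −0.81) and COX4I1 (371 and 223 CPM, −0.73), the main isoform of the largest nuclear subunit, passed 1.5-fold. The subunits that did not were COX8A (128 and 93.0 CPM, −0.45), COX6B1 (157 and 141 CPM, −0.15) and COX5A (78.8 and 71.8 CPM, −0.13). COX5A and COX5B both lie on the matrix side of the enzyme, and their ratios of 0.911 (0.843 to 0.984) and 0.474 had intervals that did not meet. After the transcript length and GC trend described further on, COX7B, COX7C, COX7A2 and COX6C had log2 folds of −1.73, −1.20, −0.97 and −0.73. COX5B, COX6A1, COX4I1 and COX7A2L were then at −0.44, −0.23, −0.15 and −0.11, none of them 1.5-fold lower. COX5A, COX8A and COX6B1 were above 0, at 0.34, 0.36 and 0.57, and the complex IV median was −0.23.

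In ATP synthase, folds ranged widely within the F1 head, and the small membrane subunits were lower in the deposited values. The catalytic F1 head is built of alpha, beta, gamma, delta and epsilon subunits. ATP5F1A (alpha) had the highest log2 fold of the 37 genes (0.10), with 340 CPM for control siRNA and 364 CPM for CHI3L1 siRNA, a ratio of 1.07 (1.03 to 1.11). Its log2 fold was −0.17 and −0.01 after the 2 trends in length and GC content described further on. ATP5F1B (beta), which carries the catalytic sites, had 865 and 620 CPM, a ratio of 0.716 (0.699 to 0.734). ATP5F1C (ENSG00000165629, chromosome 10, 7788129 to 7807815), the gamma subunit that turns inside the alpha and beta ring, had 567 and 159 CPM, a ratio of 0.281 (0.270 to 0.293). The other parts of the central stalk split in the same way, with 772 and 216 CPM for ATP5F1E (epsilon, ratio 0.280, 0.270 to 0.290) and 112 and 91.9 CPM for ATP5F1D (delta, 0.817, 0.765 to 0.873). Within the F1 head, gamma and epsilon were over 3-fold lower while alpha, beta and delta did not pass 1.5-fold.

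The peripheral stalk, which holds the head still, had closer values in the deposited data. ATP5PB (subunit b) had 246 and 128 CPM (log2 fold −0.94), ATP5PO (OSCP) 55.1 and 32.7 CPM (−0.74), ATP5PD (d) 193 and 127 CPM (−0.61) and ATP5PF (F6) 99.3 and 66.0 CPM (−0.58). In the same order, these log2 folds were −0.78, −0.28, 0.13 and −0.06 after the transcript length and GC trend. They were −0.70, −0.45, −0.11 and 0.16 after the coding trend. The c-ring, the rotor in the membrane, is made of 1 mature protein encoded at 3 loci that differ in their targeting sequences, and the loci did not move as a group. ATP5MC3 had 218 and 120 CPM, a ratio of 0.549 (0.520 to 0.579), ATP5MC1 112 and 76.4 CPM, a ratio of 0.683 (0.637 to 0.732), and ATP5MC2 100.2 and 101 CPM, a ratio of 1.01 (0.947 to 1.08). The counting intervals of the 3 loci did not overlap.

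All 5 small membrane subunits, which shape the dimer of the enzyme at the cristae edge, were at least 1.5-fold lower in the deposited values, but only ATP5MK and ATP5MJ stayed so after both trends in length and GC content. ATP5MK (chromosome 10, 103389041 to 103396492), also called DAPIT, had 318 and 78.6 CPM, a ratio of 0.247 (0.233 to 0.262), and ATP5MJ, the 6.8 kDa proteolipid, had 302 and 99.2 CPM, a ratio of 0.329 (0.312 to 0.347). ATP5ME (e), ATP5MG (g) and ATP5MF (f) had log2 folds of −1.04, −0.91 and −0.65, which became −0.20, −0.27 and 0.19 after the transcript length and GC trend and −0.45, −0.39 and −0.10 after the coding trend. ATP5ME and ATP5MG were among the genes with fewest reads, at 1200 and 711 and at 696 and 449 reads.

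**Figure D2:**
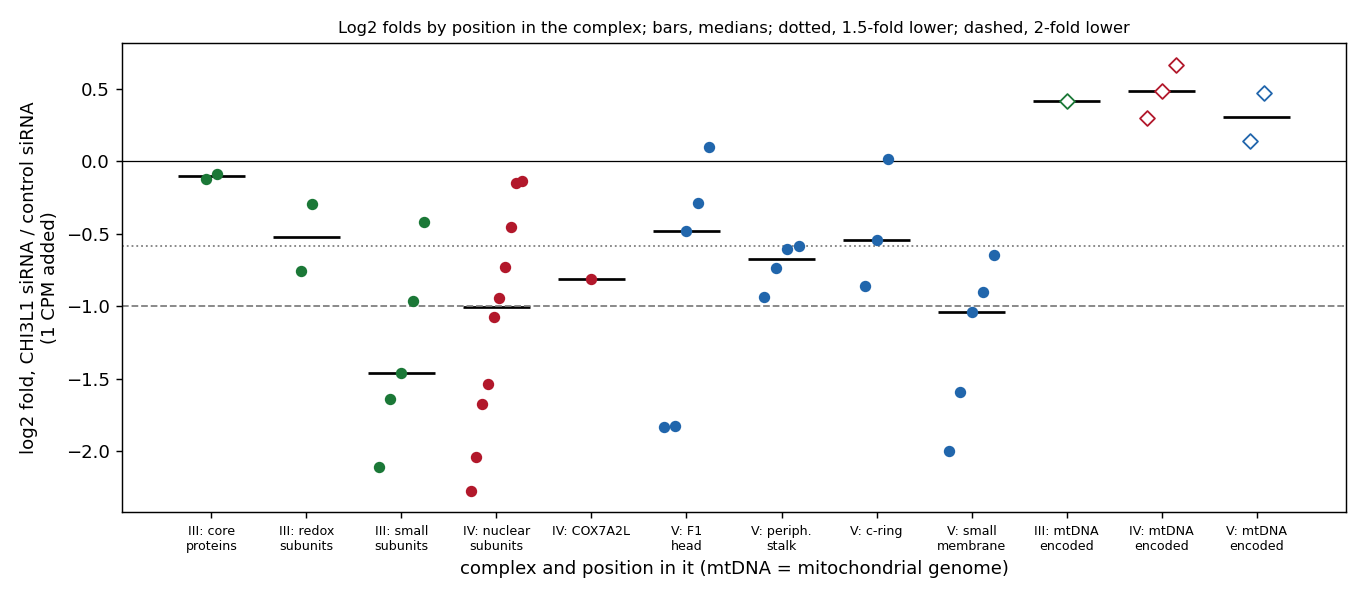
Log2 fold of each gene by its position in complexes III (green), IV (red) and V (blue), with nuclear genes as filled circles and mitochondrially encoded genes as open diamonds; black bars are medians. The small complex III subunits (median −1.46) and small ATP synthase membrane subunits (median −1.04) lie low, the complex III core proteins lie near 0, and all 6 mitochondrially encoded genes lie above 0. All are deposited values, with no trend in length or GC content subtracted.

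The mitochondrial genome supplies cytochrome b to complex III, the 3 catalytic subunits to complex IV and subunits a and A6L to ATP synthase, and these 6 transcripts were all higher with CHI3L1 siRNA. MT-CYB had 1529 and 2040 CPM, a ratio of 1.33 (1.31 to 1.36). MT-CO1 had 7247 and 11504 CPM, a ratio of 1.59 (1.58 to 1.60), MT-CO2 3777 and 5282 CPM (1.40) and MT-CO3 1862 and 2289 CPM (1.23). MT-ATP6 had 1581 and 2196 CPM (1.39) and MT-ATP8 79.7 and 87.9 CPM (1.10, 1.03 to 1.19); these 2 genes overlap, so their reads cannot be fully told apart. Only MT-CO1 was at least 1.5-fold higher by the log2 fold rule. Summed CPM of mitochondrial over nuclear transcripts went from 0.473 to 1.51 in complex III, from 3.37 to 13.0 in complex IV and from 0.352 to 0.903 in complex V. Both trends in length and GC content described further on leave out mitochondrially encoded genes, so these ratios are of deposited values only.

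Less common isoforms of the same subunits were few in these cells. COX7A1, the muscle-type partner of COX7A2, had 46.7 and 33.6 CPM, a ratio of 0.720 (0.647 to 0.801) against 0.312 for COX7A2. COX7B2, a relative of COX7B, had 26.2 and 9.28 CPM, a ratio of 0.354 (0.295 to 0.422), and COX6B2 had 14 and 9 reads. UQCRHL had 8.66 and 2.51 CPM, and its coding sequence is 98.5% identical to that of UQCRH, so reads of this pair are uncertain. COX4I2, COX6A2, COX8C, ATP5F1EP2 and ATP5MGL were looked for and not found among the genes of the deposited table.

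In the deposited values, the wider respiratory lists showed the same side of 0 for nuclear subunits and values nearer 0 for general mitochondrial genes. Beside them, 13.4% of all tested genes and 36.4% of other short coding genes were at least 1.5-fold lower. Of 36 measured nuclear complex I genes, 22 were at least 1.5-fold lower and 0 higher (median −0.70), with named genes from NDUFS5 (1126 and 299 CPM, log2 fold −1.91), NDUFB3 (−1.86) and NDUFB1 (−1.60) to NDUFV3 (0.16). After the transcript length and GC trend, the complex I and complex II medians were −0.18 and −0.22. Those of the carriers, content markers and biogenesis regulators named below were −0.10, −0.02 and −0.10. In complex II, SDHB, SDHC and SDHD had log2 folds of −0.70, −0.56 and −0.74, and SDHA, the flavoprotein, of 0.20. NDUFA4, now counted with complex IV, had 965 and 259 CPM, a ratio of 0.268 (0.260 to 0.277), close to the lowest genes of that complex.

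Assembly factors were lower in part, and the counts below stand beside 13.4% of all tested genes at least 1.5-fold lower. Among other coding genes of up to 600 nt, that share was 36.4%. Of the genes named below, UQCC5, UQCC2, UQCC3, SLIRP, CMC2, COX14, ATP5IF1 and TMEM242 fall in that class by length. In the complex III list 5 of 8 genes were at least 1.5-fold lower (median −0.72), with UQCC5, UQCC2 and UQCC3 at −1.19, −1.04 and −0.87, TTC19 at −0.28 and UQCC1 at 0.10. In the complex IV list 13 of 26 were (median −0.59), and SLIRP, which stabilises mitochondrial mRNA with LRPPRC, was lowest at 216 and 49.3 CPM (−2.11), followed by CMC2 (−1.59) and COX14 (−1.48), while COX10 (0.22), for heme synthesis, and the membrane insertase OXA1L (0.24) were highest. In the complex V list 3 of 6 were (median −0.50), among them TMEM70 (−0.82), the inhibitor ATP5IF1 (415 and 252 CPM, −0.72) and DMAC2L (−0.63), with ATPAF2 at −0.19 and TMEM242 at −0.16. No gene of these 3 lists was 1.5-fold higher, against 7.73% of all tested genes. After the transcript length and GC trend, the list medians were −0.42, −0.19 and −0.21.

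Cytochrome c (CYCS), the electron carrier between complexes III and IV, had 382 and 245 CPM (log2 fold −0.64), and the phosphate carrier SLC25A3 and the ADP/ATP carriers SLC25A4, SLC25A5 and SLC25A6 had log2 folds of −0.03, −0.01, −0.39 and 0.01. Against the 13.4% of all genes at least 1.5-fold lower, the counts in the next 2 lists do not set these lists apart. Markers of mitochondrial content had a median of −0.22, with 3 of 15 at least 1.5-fold lower (VDAC3 at −1.01, PHB1 and TOMM22 both at −0.73) and 0 higher. IMMT and HSPA9 were highest in that list at 0.46 and 0.53. Regulators of mitochondrial biogenesis had a median of −0.04, and 1 of 12 was at least 1.5-fold lower, the mitochondrial DNA-binding factor TFAM (90.7 and 52.3 CPM, −0.78). ESRRA and TFB2M had log2 folds of −0.49 and −0.34, NRF1 of 0.28 and the coactivator PPARGC1A of 0.33.

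Genes that link respiration to low oxygen were on both sides. HIGD1A, a small complex IV partner, had 131 and 37.9 CPM (log2 fold −1.76), whereas the mitochondrial protease LONP1 had 198 and 289 CPM (0.54), HIGD2A 23.4 and 30.1 CPM (0.35) and PDK1 48.2 and 62.4 CPM (0.37). BNIP3 and BNIP3L, mitophagy receptors, had log2 folds of −0.23 and 0.22. NDUFA4L2, a relative of NDUFA4, had 21 and 51 reads (log2 fold 0.64).

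**Figure D3:**
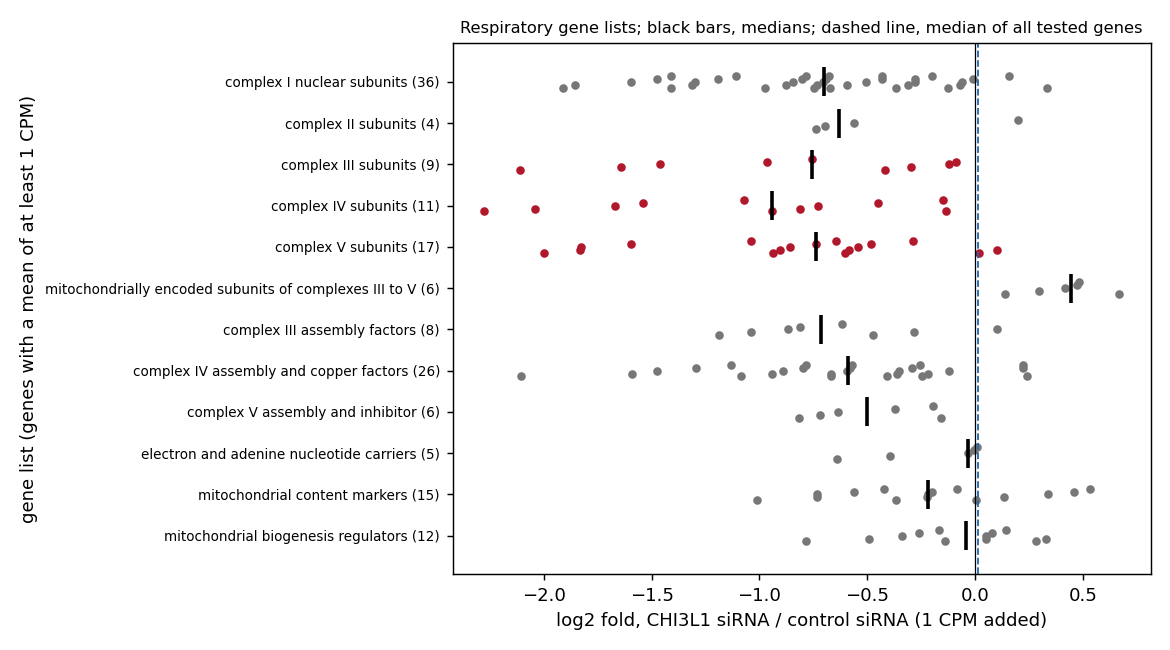
Log2 fold of every gene with a mean of at least 1 CPM in 12 respiratory gene lists, with the number of genes in brackets; black bars are list medians, red marks the nuclear subunits of complexes III to V, and the dashed line is the median of all tested genes (0.01). Nuclear subunits of complexes I to V have medians from −0.94 to −0.63, the mitochondrially encoded subunits lie at 0.44, and the carriers, content markers and biogenesis regulators lie between −0.22 and −0.03. These are deposited values, with no trend in length or GC content subtracted.

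The members share short coding sequences, and short genes as a class were lower in this comparison. Of the 37 genes, 28 have a coding length of up to 600 nt. Their median log2 fold was −0.92, with 20 of 28 (71.4%) at least 1.5-fold lower and 12 at least 2-fold lower. The 1509 other coding genes of that length outside all the lists had a median of −0.39, and 36.4% of them were at least 1.5-fold lower and 17.0% at least 2-fold lower. The 9 longer members had a median of −0.48, with 4 of 9 at least 1.5-fold lower, against 0.10 and 8.64% for 10980 other coding genes above 600 nt.

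Base composition moved with the folds as well. Members of up to 600 nt with under 45% GC in the coding sequence (6 genes, among them COX7B, UQCRB, ATP5MK and ATP5MJ) had a median log2 fold of −1.80, those from 45% to under 55% (14 genes) of −0.97, and those with 55% or more (8 genes) of −0.43. The other short coding genes had medians of −0.69, −0.39 and −0.28 in the same classes. In the highest GC class, 3 of 8 members (37.5%) and 27.3% of other genes were at least 1.5-fold lower. Across all 37 genes, Pearson's r of log2 fold with coding GC content was 0.51 (Spearman's rho 0.47), and it was 0.61 (rho 0.58) over the 28 short ones and 0.29 (rho 0.27) over the 1509 other short genes. With transcript GC content, r over the 37 genes was 0.57 (rho 0.56). With the log2 of the mean CPM it was −0.49 (rho −0.44), so genes at higher levels tended to lower folds. That mean is made from the same 2 values as the fold. The points are genes of the same 2 libraries and are not independent. Coding length did not order every gene, since ATP5F1C (891 nt, 44.0% GC) was far lower than COX6B1 (258 nt), with log2 folds of −1.83 and −0.15. The 3 c-ring loci, with coding lengths from 408 to 426 nt, had log2 folds of −0.86 for ATP5MC3 at 49.1% GC, −0.54 for ATP5MC1 at 54.4% and 0.02 for ATP5MC2 at 55.3%.

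**Figure D4:**
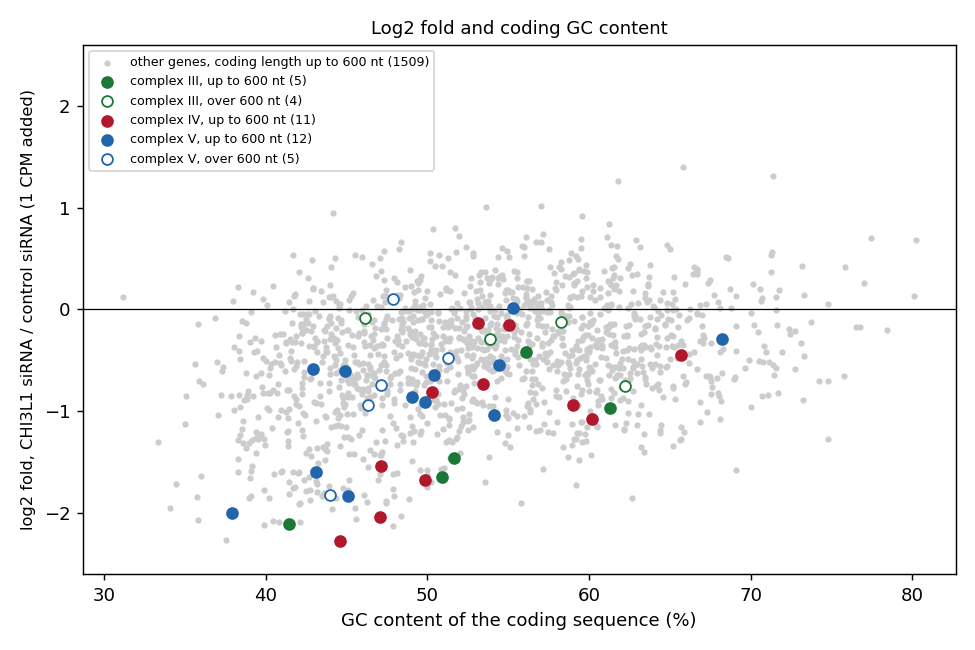
Log2 fold against GC content of the coding sequence for the members (coloured, filled up to 600 nt of coding length and open above) and for 1509 other coding genes of up to 600 nt (grey); each point is 1 gene. Low-GC members reach the lowest folds (COX7B and UQCRB at −2.28 and −2.11), and members with 55% GC or more lie at −1.07 or above.

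A smooth trend in 3 features (transcript length and GC content, and the length of the coding sequence) was fitted to 12489 coding genes outside the lists and took up 35.1% of the variance of their folds. With that trend subtracted, 13 of the 37 genes were at least 1.5-fold lower (6.45% of all coding genes) and 6 at least 2-fold lower (1.4%). The median was −0.27, against 0.05 over all coding genes. Below 0 were 28 of the 37 genes, and the share of all coding genes below 0 was not counted. With a trend in coding length and coding GC content alone, chosen after the data were seen, 15 genes were at least 1.5-fold lower (7.31%) and 7 at least 2-fold lower (1.53%). The median was then −0.42, against 0.05 over all coding genes. COX7B, UQCRB, COX7C, ATP5F1E and ATP5F1C were at least 2-fold lower in the deposited values and after either trend. COX6B1, COX8A, COX5A, UQCR10, ATP5F1D and ATP5MC2 were above 0 after both trends, between 0.11 and 0.57. ATP5MF, ATP5PD and ATP5MC1 went from below 0 to above 0 (0.19, 0.13 and 0.12) only after the first trend, and ATP5PF (0.16) only after the second. What share of the difference comes from transcript length or base composition was not tested.

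**Figure D5:**
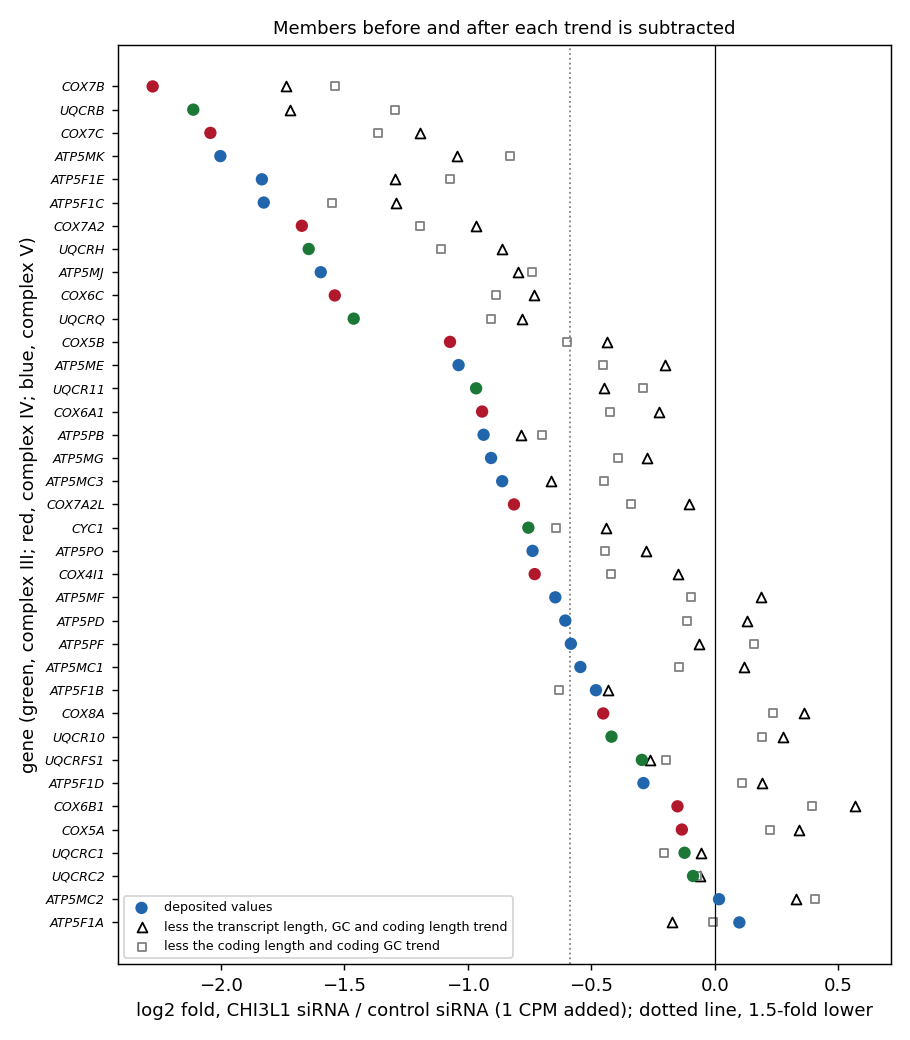
Log2 fold of each of the 37 genes in the deposited values (coloured circles) and after the transcript length, GC and coding length trend (triangles) or the coding length and coding GC trend (squares) was subtracted; the dotted line marks 1.5-fold lower. The lowest 11 genes stay left of the dotted line in all 3 versions, as does ATP5PB, and the other genes that start left of it cross it in at least 1 version.

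The regions upstream of the genes hold known motifs of respiratory gene promoters, though not in every member. Windows of 250 bases before a RefSeq start were had for 30 of the 37 genes (36 windows, GRCh38.p14). RefSeq starts differ from the GENCODE gene starts given above, so a window can reach into the GENCODE gene, as the 4 shown here do. The core CCGGAAG bound by ETS factors such as GABPA was found on either strand in 11 of 30 genes (36.7%), against 18.8% of 10310 other tested coding genes, and in 33.3% of windows, against 8.52% of all 35116 windows. The NRF1 core GCATGCGC was found in 6 of 30, against 5.67% of the same other genes, and in 19.4% of windows, against 2.63% of all windows. The YY1 core AAGATGGC was found in 1 of 30 (2.30% of other genes), CCAAT in 13 of 30 (43.3%, against 41.9%) and TATAAA in 3 of 30 (8.17% of other genes). Genes holding the ETS core had a median log2 fold of −0.94 and those lacking it −0.81, with −0.99 and −0.78 for the NRF1 core. A match is a description of these letters only. Shown here, on the strand of the gene and with both cores in capitals, are the windows of COX7B and COX7C, 2 of the 3 lowest folds, of COX5B, which holds both cores, and of ATP5MC2, the highest fold with an NRF1 core. They lie at chrX:77899218-77899467 (plus strand), chr5:86617691-86617940 (plus), chr2:97645812-97646061 (plus) and chr12:53676084-53676333 (minus). The last is 1 of 3 RefSeq windows of ATP5MC2 and lies within its GENCODE gene (53632726 to 53677408).
COX7B: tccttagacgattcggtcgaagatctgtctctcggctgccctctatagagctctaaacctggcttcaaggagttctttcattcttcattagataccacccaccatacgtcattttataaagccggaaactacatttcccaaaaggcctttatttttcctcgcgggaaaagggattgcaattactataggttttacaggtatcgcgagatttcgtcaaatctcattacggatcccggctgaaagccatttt
COX7C: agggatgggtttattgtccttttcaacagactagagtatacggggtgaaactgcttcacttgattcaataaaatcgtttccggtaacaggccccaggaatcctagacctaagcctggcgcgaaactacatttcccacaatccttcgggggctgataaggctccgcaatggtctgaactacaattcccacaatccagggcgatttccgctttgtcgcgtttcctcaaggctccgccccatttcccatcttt
COX5B: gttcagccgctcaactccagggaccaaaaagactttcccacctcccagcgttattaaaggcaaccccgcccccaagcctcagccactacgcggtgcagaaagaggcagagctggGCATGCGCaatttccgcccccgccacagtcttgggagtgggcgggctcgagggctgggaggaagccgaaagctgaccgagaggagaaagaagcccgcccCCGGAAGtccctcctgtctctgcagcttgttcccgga
ATP5MC2: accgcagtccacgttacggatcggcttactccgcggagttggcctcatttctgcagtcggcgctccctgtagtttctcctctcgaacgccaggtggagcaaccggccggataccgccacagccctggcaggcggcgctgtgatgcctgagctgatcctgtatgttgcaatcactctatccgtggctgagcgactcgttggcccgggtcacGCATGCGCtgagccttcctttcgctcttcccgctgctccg

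Some of these genes have near-identical copies or share exonic bases with another gene, which bears on reads counted without a stated strand or multi-mapping setting. A copy elsewhere in the annotation at 95% identity or more over at least 80% of the coding sequence was found for COX7C, UQCRH, UQCRFS1, COX6A1, ATP5F1E, ATP5MF, ATP5MG, ATP5MK and ATP5PD, so their reads are uncertain. At least 5% of the exonic bases overlap another annotated gene in ATP5ME (61.6%, the opposite-strand gene MYL5), COX8A (34.5%), ATP5F1E (23.2%), UQCRQ (20.8%), ATP5PF (20.2%, GABPA), ATP5PO (19.6%) and others. The 19 genes without either had a median log2 fold of −0.73, with 10 of 19 at least 1.5-fold lower and 7 at least 2-fold lower. COX7B, UQCRB, ATP5F1C, COX7A2, ATP5MJ and COX6C are in that set. Of 117 annotated pseudogenes named after a member, 3 were in the table (ATP5PDP4, ATP5PBP5 and COX6A1P2), with 19 reads in all for control siRNA and 25 for CHI3L1 siRNA.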

How the data were processed

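Per the labels' protocols, RNA was extracted with Trizol and libraries were made with an Illumina TruSeq RNA kit. HISAT2, featureCounts, Trimmomatic, FastQC, MultiQC and the build GRCh38 are listed per the submitters' processing notes, without versions or roles; annotation, strand setting and any low-count filter were not stated there. The authors deposited 1 table of normalised values in CPM. Dividing a library's values by what 1 read is worth (0.0632 CPM for control siRNA, 0.0513 CPM for CHI3L1 siRNA) and taking off 0.001 gave reads that were whole within 0.01 for 100% of values, and the intervals rest on these. A count of 0 allows up to 3 reads.

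The members and lists were chosen with earlier results of these data known. Named genes were CHI3L1, all members, the short lists in full and, from the longer lists, up to 3 lowest and 2 highest folds at a mean of at least 10 CPM. A gene of the complex I list is not reported here. No count model was run. Positions, lengths and GC content came from 1 principal transcript per gene in GENCODE 29; trends were fitted with splines (scikit-learn 1.9.0), copies were sought with BLAST+ 2.17.0, and intervals used SciPy 1.17.1. Steps were tested on simulated data. Alternatives were other pseudocounts, mean filters and scalings, both trends, and members without copies or overlaps.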

Additional observations from a re-analysis of the deposited data

How the results depend on the processing

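The direction of each complex median was the same under every setting run, and their sizes moved. In the order complex III, IV and V, the medians were −0.72, −0.81 and −0.62 at a pseudocount of 10 CPM. They were −0.85, −1.04 and −0.84 when centred on the median of genes averaging 50 CPM or more. All 37 genes then lay below 0, ATP5MC2 at −0.08 and ATP5F1A only just, at −0.0003. This centring moved every gene down alike, and the median of all genes was −0.09. The share of all genes below 0 was not counted there. Among genes averaging 200 CPM or more, the complex medians were −1.46, −1.67 and −1.12. There 16 members were left and 13 were at least 1.5-fold lower, against 21.6% of all 806 genes past that filter. The filter uses the mean of both libraries, and COX7B, ATP5F1C, COX7A2, COX6C, ATP5MJ, CYC1 and ATP5MF passed only through their control value. The medians of this setting therefore rest in part on that selection. The complex medians were −0.44, −0.23 and −0.27 after the transcript length and GC trend (13 genes at least 1.5-fold and 6 at least 2-fold lower). After the coding length and coding GC trend they were −0.29, −0.42 and −0.45 (15 and 7). Genes without copies or overlaps gave −0.42 for complex III, −0.94 for complex IV and −0.51 for complex V. Of these 19 genes over all complexes, 10 were at least 1.5-fold and 7 at least 2-fold lower. The last 2 settings were chosen after the data were seen. The sign changed for 9 members under the transcript length and GC trend, of which ATP5MF (0.19) and ATP5PD (0.13) had been at least 1.5-fold lower, and for 7 under the coding trend. The trend by construction removes what folds share with length and GC content, and the cause of the other moves was not tested. With every member kept, 26 were below 0 and 12 at least 1.5-fold lower under each setting. The same count over all genes was not made, so these 2 counts have no share beside them. Under single settings with every member kept, 6.45% (transcript length and GC trend) to 17.4% (centred) of all genes were at least 1.5-fold lower. No paired analysis was possible because each group has 1 library. With 1 library per group, depth limits only the counting error and says nothing of variation between cultures.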
